A study of Gallus gallus with 4 samples.

Results

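The spliceosomal and other small nuclear RNAs of the chick midbrain region were followed through periodate oxidation. They were taken as every row of the table of other repeats whose name is U followed by a number, or begins with 7SK, 7SL or HY. This gave 10 rows of the 24689 in the 6 count tables: U1, U2, U3, U4, U5, U6, U7, U13, U14 and U17. No row began with 7SK, 7SL or HY. The label of small nuclear RNA holds for 6 of the rows only: U3, U13, U14 and U17 are names of small nucleolar RNAs. A row is a repeat name and may pool several annotated copies, genes or pseudogenes, so it cannot be read as a single locus.

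The libraries were made from wild-type embryos of the chick (Gallus gallus) at the Hamburger-Hamilton stage HH9-, grown for about 30 hours at 37 °C. RNA of the cranial midbrain region was size selected from 19 to about 38 nucleotides. One portion of each sample was treated with sodium periodate (oxidized) and the other was left as it was (total), with 2 libraries of each kind. Periodate destroys the 3′ end of an RNA whose last ribose is free, so that RNAs with a 2′-O-methyl group at that position, such as PIWI-interacting RNAs, are kept. Whether different embryos went into each replicate is not stated, so the p-values measure the spread between these libraries, which may be technical. The identity of the tissue was not checked against marker genes, because the tables pair no gene name with their gene IDs.

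Small nuclear RNAs are stable, abundant noncoding RNAs that work inside RNA-protein particles. U1 pairs with the 5′ splice site and U2 with the branch site of an intron. U6 arrives paired to U4, which is released before the reaction, while U5 holds the exons to be joined. U7 works outside splicing, in making the 3′ end of histone mRNAs. The small nucleolar RNAs U3, U14 and U17 take part in processing of the ribosomal RNA precursor. U3, U13 and U14 are of the box C/D kind and U17 is of the box H/ACA kind. All of these RNAs are longer than the size selected here, so the reads come from fragments. A count of reads says nothing about the level of the intact RNA, and the rows' lengths are not in the tables, so levels are not compared per length.

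Reads assigned to any row numbered 10981001 to 17962725 per library. In the total libraries 75.6% and 68.2% of these reads were miRNA, against 1.56% and 1.62% in the oxidized libraries. A level is therefore given on both denominators, as counts per 1000000 assigned reads (CPM) and as counts per 1000000 assigned reads other than miRNA. TE (transposable element) reads made up 48.5% and 46.1% of the oxidized and 0.868% and 1.01% of the total libraries, so they take up room in the oxidized libraries on either denominator.

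As a sum, the 10 rows were lower after oxidation on both denominators. They held 6271 and 9465 reads in oxidized replicates 1 and 2 and 56796 and 56040 reads in total replicates 1 and 2. This was 571 and 672 CPM in the oxidized libraries and 3162 and 3749 CPM in the total libraries. Both oxidized libraries lay below both total libraries. The mean level was 622 ± 71.5 CPM after oxidation and 3456 ± 416 CPM in total libraries (mean ± SD, n = 2 each), 5.56-fold lower. Per 1000000 reads other than miRNA it was 632 ± 72.9 against 12372 ± 841, 19.6-fold lower. With 2 libraries a side the smallest p of an exact two-sided permutation test is 0.333, and the sum on either denominator, the ratios to rRNA, tRNA and miRNA reads and the antisense share each had that p (0.333 after Benjamini-Hochberg adjustment over 6 comparisons).

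Set against other RNA of the same library, these reads as a sum fell relative to rRNA and tRNA reads and rose relative to miRNA reads. There were 0.0623 and 0.0569 such reads per rRNA read in total replicates 1 and 2 and 0.00876 and 0.00875 in oxidized replicates 1 and 2, 6.80-fold lower. Per tRNA read there were 0.0224 and 0.0201 against 0.00158 and 0.00186, 12.3-fold lower. Per miRNA read the order turned over, with 0.00418 and 0.00550 in total libraries and 0.0365 and 0.0414 after oxidation, an 8.05-fold higher ratio. None of these ratios depends on the library size. The falls per rRNA and tRNA read rest on U5 to a large part. Without U5 their log2 ratios of oxidized over total went from -2.77 to -0.93 and from -3.63 to -1.80. The rise per miRNA read does not, as its log2 ratio went from 3.02 to 4.85 without U5. In CPM the 9 other rows went from 528 ± 46.0 to 343 ± 86.6, 1.54-fold lower. Per 1000000 reads other than miRNA they went from 1898 ± 192 to 349 ± 88.2, 5.44-fold lower. Not every row followed the sum. On the denominator without miRNA the ratio of means of U3, 0.430, was above the 0.348 of the rRNA sum. In same-numbered pairs 1 and 2 it was 0.206 and 0.739 for U3, against 0.318 and 0.377 for the rRNA sum.

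Row by row, 3 of the 10 rows fell (U1, U5 and U6), none rose and 7 did not pass, with an edgeR quasi-likelihood test fitted to all 1326 features that passed a filter on low counts and a Benjamini-Hochberg adjusted p under 0.05. All 10 rows passed that filter. Over all features tested, 57.3% were lower and 15.7% were higher; the difference from these shares was not tested. At an unadjusted p under 0.05 by edgeR there were 4 lower and no higher rows. Over all features at least the 57.3% and 15.7% above passed it, since an adjusted p is never below the unadjusted one. DESeq2 called 4 rows lower (55.3% of all features) and no row higher (210 of 1326 features). With the replicate number as a block, which pairs the libraries, 1 row fell (U5), against 12.5% of all features. The median log2 fold change was -1.46 over the 10 rows and -5.25 over all features. By kind it was -7.26 over 385 miRNA rows, -5.34 over 760 other genes and -1.65 over 22 other repeats, which include the 10 rows. For tRNA, rRNA and TE rows it was 0.46, 0.92 and 4.05. On the denominator without miRNA, 5 rows fell (U1, U2, U5, U6 and U14) and none rose, against 63.3% lower and 10.7% higher over all features. The counts of rows were the same at an unadjusted p under 0.05 by edgeR, which at least those shares of features passed. On that scale the medians over the 10 rows and over all features were -3.28 and -7.07. The change of scale alone moved the median feature by -1.74.

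**Figure D1:**
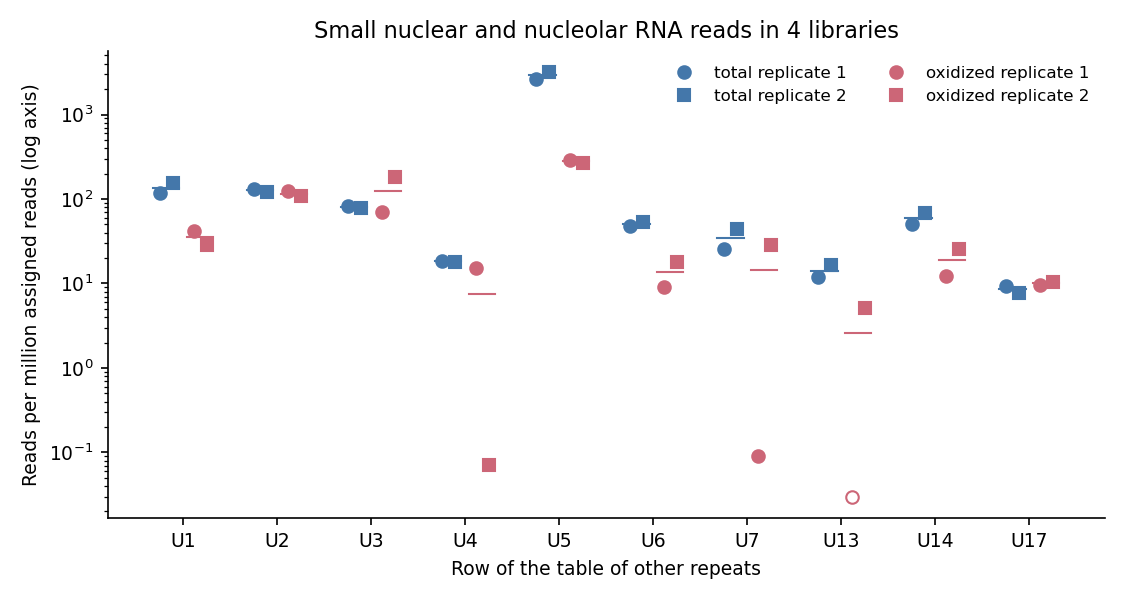
Counts per 1000000 assigned reads (log axis) for each of the 10 rows, with circles for replicate 1, squares for replicate 2 and short lines for the group means (n = 2). The open circle is U13 in oxidized replicate 1, which had 0 reads and is drawn at the bottom of the axis. U5 stands above every other row in all 4 libraries, U2 and U17 lie at about one height in both groups, and the oxidized libraries are far apart for U4, U7 and U13.

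Among the 5 RNAs of the major spliceosome, U5 gave most of the reads and had the clearest fall. It had 47888 and 47655 reads in total replicates 1 and 2 and 3177 and 3772 in oxidized replicates 1 and 2. The level was 2666 and 3188 CPM in the total libraries and 289 and 268 CPM in the oxidized libraries. The replicates lay close to each other in both groups, and the groups were far apart. U5 fell 10.5-fold in mean CPM and was lower in each oxidized library (log2 fold change -3.39, SE 0.21, adjusted p = 0.0025 by edgeR). Per 1000000 reads other than miRNA it fell 37.0-fold, from 10474 ± 649 to 283 ± 15.3 (log2 fold change -5.21, SE 0.26, adjusted p = 0.0014 by edgeR). U5 stayed past the threshold under each of the 12 alternatives, with edgeR, DESeq2 or voom adjusted p from 1.8e-26 to 0.0050.

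U1, which recognises the start of the intron, had 2103 and 2288 reads in the total and 455 and 405 in the oxidized libraries. The levels were 117 and 153 CPM against 41.4 and 28.8 CPM, and the groups did not overlap. U1 fell 3.85-fold (log2 fold change -1.94, SE 0.40, adjusted p = 0.015 by edgeR) and 13.5-fold per reads other than miRNA (log2 fold change -3.75, edgeR adjusted p = 0.0039). With the replicate number as a block its call was lost at a like fold change (log2 -1.96, edgeR adjusted p = 0.093), as it was without total replicate 1 (-2.12, 0.25) or total replicate 2 (-1.74, 0.57). With sense reads only the log2 fold change was -1.07 (edgeR adjusted p = 0.093).

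U6, the RNA at the catalytic centre of the spliceosome and the RNA polymerase III product of the set, had 857 and 805 reads in the total and 100 and 252 in the oxidized libraries. This was 47.7 and 53.9 CPM against 9.11 and 17.9 CPM, with no overlap, although the oxidized libraries differed by more than the total ones. U6 fell 3.76-fold (log2 fold change -1.91, SE 0.54, adjusted p = 0.036 by edgeR) and 13.3-fold per reads other than miRNA (log2 fold change -3.73, edgeR adjusted p = 0.0056). The block ended this call too (log2 fold change -1.99, edgeR adjusted p = 0.29), as did leaving out total replicate 1 (-1.995, 0.60) or 2 (-1.82, 0.63), fitting without a filter on low counts (-1.91, 0.10) and counting oxidized reads as molecules (-1.74, 0.064). With sense reads only the log2 fold change was -1.05 (edgeR adjusted p = 0.18).

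U2, the branch site RNA, held its level per assigned read most closely of the spliceosomal rows. Its reads numbered 2347 and 1816 in the total libraries and 1371 and 1510 in the oxidized libraries. The levels were 131 and 122 CPM against 125 and 107 CPM, and the groups overlapped. The log2 fold change was -0.12 with an SE of 0.30 (edgeR adjusted p = 0.75). Per reads other than miRNA, U2 fell 3.89-fold, from 459 ± 109 to 118 ± 12.6 (log2 fold change -1.96, SE 0.43, adjusted p = 0.014 by edgeR). With sense reads only its log2 fold change was 0.76 (adjusted p = 0.098 by edgeR). The call for U2 depended on whether miRNA was in the denominator.

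U4, which carries U6 into the spliceosome, had 336 and 269 reads in the total libraries but 166 reads in oxidized replicate 1 and 1 read in oxidized replicate 2. The levels were 18.7 and 18.0 CPM in the total libraries and 15.1 and 0.071 CPM in the oxidized libraries. Both oxidized libraries lay below the total ones, one of them by little. The row did not pass (log2 fold change -1.27, SE 2.09, adjusted p = 0.63 by edgeR). Per assigned read the log2 fold change was -7.86 without oxidized replicate 1 and -0.28 without oxidized replicate 2. The fall of this row per assigned read thus rests on 1 library. Per reads other than miRNA the ratio of oxidized to total was 0.200 and 0.0013 in same-numbered pairs 1 and 2. Both oxidized libraries were then well below the total ones, but U4 did not pass (log2 fold change -3.11, SE 2.10, adjusted p = 0.25 by edgeR).

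**Figure D2:**
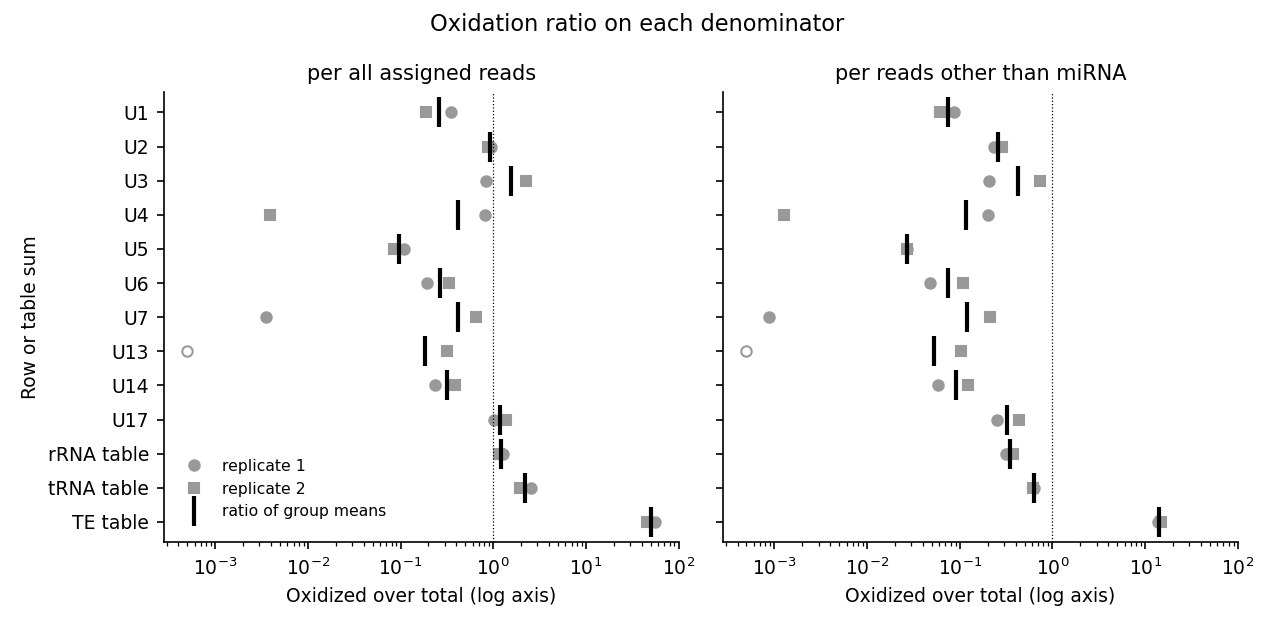
Ratio of the oxidized to the total level (log axis) per all assigned reads (left) and per reads other than miRNA (right), for the 10 rows and for the sums of the rRNA, tRNA and TE tables. Grey symbols are same-numbered library pairs and black bars are ratios of group means. On the right all 10 rows lie left of the dotted line at 1 and U5 has the lowest ratio of means, 0.027; open circles mark U13 in replicate 1, whose ratio of 0 is drawn at the left edge.

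The balance between the rows shifted within libraries, a measure that needs no library size. It was taken per U2 read, and U2 held its level per assigned read, so the falls below follow those in CPM. U5 reads per U2 read numbered 20.4 and 26.2 in the total and 2.32 and 2.50 in the oxidized libraries, a 9.69-fold lower ratio. U1 reads per U2 read went from 0.896 and 1.26 to 0.332 and 0.268, 3.59-fold lower. U6 reads per U2 read went from 0.365 and 0.443 to 0.0729 and 0.167, 3.37-fold lower. None of these 3 ratios overlapped between the groups, and each had the smallest p possible, 0.333, in an exact two-sided permutation test (0.429 after adjustment over the 9 ratios to U2). The ratios of U4, U13 and U14 to U2 were also lower without overlap, while those of U3 and U7 overlapped. For U4 the ratio was 0.121 and 0.000662 in oxidized replicates 1 and 2, against 0.143 and 0.148 in the total libraries. For U13 it was 0 in oxidized replicate 1. Per assigned read 64.8% of all features were lower without overlap, and the share per U2 read was not computed. U17 per U2 was the ratio that was higher in both oxidized libraries, at 0.0773 and 0.0974 against 0.0720 and 0.0633 (exact permutation p = 0.333, 0.429 adjusted).

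These shifts changed which rows the reads came from. U5 made up 84.3% and 85.0% of the reads of the 10 rows in the total libraries, and 50.7% and 39.9% in oxidized replicates 1 and 2. U2 went from 4.13% and 3.24% to 21.9% and 16.0%. U3 went from 2.63% and 2.10% to 12.2% and 26.8%. By mean CPM the order in the total libraries was U5, U1, U2, U3, U14, U6, U7, U4, U13 and U17, and the libraries of U1 and U2, and of U14 and U6, overlapped. After oxidation the order was U5, U3, U2, U1, U14, U7, U6, U17, U4 and U13. There the libraries of U3 and U2 overlapped, as did those of each neighbouring pair from U14 to the end.

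**Figure D3:**
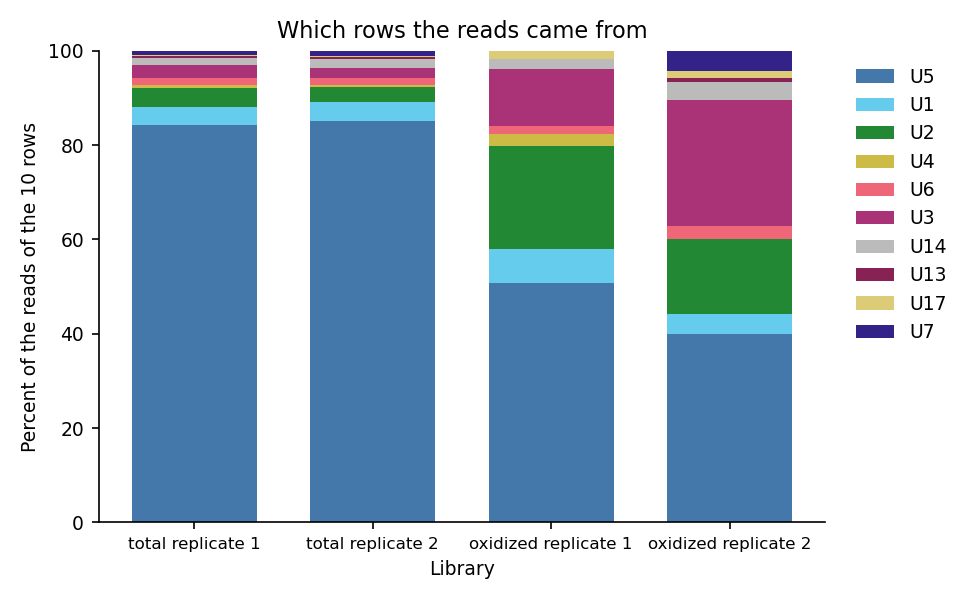
Percent of the reads of the 10 rows that came from each row, in each of the 4 libraries. U5 fills 84.3% and 85.0% of the bars of the total libraries and 50.7% and 39.9% of those of the oxidized libraries, where U2 and U3 are wider.

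The 4 small nucleolar rows as a sum stayed within the spread of the oxidized libraries. They stood at 156 and 171 CPM in total replicates 1 and 2 and at 91.2 and 222 CPM in oxidized replicates 1 and 2, so the oxidized libraries lay on both sides of the total ones. Per 1000000 reads other than miRNA they were lower in both oxidized libraries, at 159 ± 93.8 against 588 ± 73.3. U3 carried this sum after oxidation, with 762 of its 1001 and 2537 of its 3121 reads in oxidized replicates 1 and 2. Per assigned read, U13 and U14 were lower in both oxidized libraries and U17 lay just above, so the sum does not stand for each row. For comparison, the spliceosomal rows as a sum went from 3258 ± 392 to 451 ± 41.0 CPM, 7.23-fold lower. U5 carried that sum: the 4 other spliceosomal rows went from 330.3 ± 22.8 to 172 ± 25.8 CPM, 1.92-fold lower, and U2 did not pass. The difference between the 2 sums was not tested.

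U3, which is needed for the first cuts of the ribosomal RNA precursor, gave 1496 and 1179 reads in total replicates 1 and 2 and 762 and 2537 in oxidized replicates 1 and 2. The levels were 83.3 and 78.9 CPM against 69.4 and 180.2 CPM. The total libraries were close together, while the oxidized libraries lay below and above them. U3 did not pass on either scale (log2 fold change 0.62, SE 0.57, adjusted p = 0.41 by edgeR, and -1.22, SE 0.64, adjusted p = 0.16 by edgeR without miRNA in the denominator). Without oxidized replicate 1 the log2 fold change was 1.15, the sign of oxidized replicate 2 alone. Without oxidized replicate 2 it was -0.22.

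U14, a box C/D RNA, had 921 and 1011 reads in the total and 133 and 364 in the oxidized libraries. These were 51.3 and 67.6 CPM against 12.1 and 25.8 CPM, with no overlap. The row narrowly did not pass (log2 fold change -1.65, SE 0.57, adjusted p = 0.064 by edgeR), but it passed with DESeq2 (adjusted p = 0.00019) and on the denominator without miRNA (log2 fold change -3.45, adjusted p = 0.0074 by edgeR). Without oxidized replicate 1 or 2 the row had a log2 fold change of -1.20 or -2.29, in fits whose spread came from the total libraries alone. It did not pass with the replicate block (log2 fold change -1.73, edgeR adjusted p = 0.30), without total replicate 1 (-1.83, 0.59) or 2 (-1.43, 0.69), or with sense reads only (-0.79, 0.298).

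U17, the box H/ACA RNA, was the least abundant row of the total libraries and did not pass on either denominator. It had 169 and 115 reads in the total and 106 and 147 in the oxidized libraries, or 9.41 and 7.69 CPM against 9.65 and 10.4 CPM. The oxidized libraries lay just above the total ones. The row did not pass (log2 fold change 0.23, SE 0.56, adjusted p = 0.74 by edgeR). With sense reads only the log2 fold change was 1.10 (adjusted p = 0.21 by edgeR). On the denominator without miRNA it had a log2 fold change of -1.62 (SE 0.61, adjusted p = 0.070 by edgeR). Its ratio of 0.325 on that scale stood beside 0.348 for the rRNA sum and 0.629 for the tRNA sum.

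U13, another box C/D RNA, had 216 and 246 reads in the total libraries, 73 in oxidized replicate 2 and 0 in oxidized replicate 1. Counting each read as independent, a 0 there allows up to 3 reads, or 0.273 CPM, against 14.2 ± 3.14 CPM in the total libraries (n = 2). That limit may be far too low. Rows of other genes with at least 20 reads in that library and 0 in the other oxidized library had a median of 122 reads. The 0 therefore does not give the size of a fall. Both oxidized libraries were below the total ones, but the row did not pass (log2 fold change -2.45, SE 2.29, adjusted p = 0.41 by edgeR). Per assigned read the log2 fold change was -1.45 without oxidized replicate 1 and -10.70 without oxidized replicate 2, where the lone oxidized library has no read. On the denominator without miRNA the row did not pass either (log2 fold change -4.25, SE 2.21, adjusted p = 0.15 by edgeR).

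U7, the histone RNA, split the oxidized libraries in a like way. It had 463 and 656 reads in the total libraries, 404 in oxidized replicate 2 and 1 in oxidized replicate 1. The levels were 25.8 and 43.9 CPM against 28.7 and 0.091 CPM, and the groups overlapped. U7 did not pass (log2 fold change -1.27, SE 2.16, adjusted p = 0.64 by edgeR). Without oxidized replicate 2 the log2 fold change was -8.45, and without oxidized replicate 1 it was -0.28.

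The oxidized libraries thus differed from each other far more than the total libraries did. Of the 10 rows, 5 (U3, U4, U7, U13 and U14) differed over 2-fold in CPM between the oxidized libraries, and none did between the total libraries. Over all features tested and not at 0 in both libraries, 56% and 10.9% did so. Rows of the table of other genes with at least 20 reads in 1 oxidized library and 0 in the other had a median of 122 reads in oxidized replicate 1 (202 rows) and 130.5 reads in oxidized replicate 2 (218 rows). In units of these medians, U5 stood at 26.0 and 28.9, U2 at 11.2 and 11.6, U3 at 6.25 and 19.4 and U1 at 3.73 and 3.10. U17 stood at 0.869 and 1.13 units, U6 at 0.820 and 1.93, and U14 at 1.09 and 2.79. The reads of U4 in oxidized replicate 1 came to 1.36 units, those of U7 in oxidized replicate 2 to 3.10 and those of U13 there to 0.559. The part of amplification of few molecules in these splits was not tested.

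On the denominator without miRNA, all 10 rows had both oxidized libraries below both total libraries, and the same held for 73.7% of all features. Per assigned read this held for 6 rows (U1, U4, U5, U6, U13 and U14), against 64.8% of all features, and U17 lay above, against 19%. The ratio of means without miRNA ran from 0.027 for U5 to 0.430 for U3. Between them, in rising order, were 0.052 for U13, 0.074 for U1, 0.075 for U6 and 0.091 for U14. Then came 0.116 for U4, 0.120 for U7, 0.257 for U2 and 0.325 for U17. For U4, U7 and U13 an oxidized library had 0 or 1 read. Per assigned read U1 had ratios of 0.354 and 0.188 in pairs 1 and 2, and U6 of 0.191 and 0.332, so the pairs ran opposite ways.

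Nearly all reads lay on the sense strand. Counts on the reverse strand, which for RNAs of known strand are antisense, came to 0 of 15736 reads of the 10 rows in the oxidized libraries. Counting each read as independent, this allows a share of up to 0.0191%. In the total libraries they came to 26 of 56796 reads (0.0458%, exact 95% binomial interval 0.0299 to 0.0671%) and 29 of 56040 reads (0.0517%, 0.0347 to 0.0743%). The observed antisense share was 0.0488 percentage points higher in the total libraries (exact permutation p = 0.333, the smallest possible, 0.333 adjusted). If each unit above, of 122 or 130.5 reads, were a single independent count, the oxidized libraries would hold far fewer counts than reads. On that untested estimate the limit would be far higher, and whether the share changed cannot be told. Intervals and limits cover counting error only.

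The antisense reads came from 5 rows. U2 had 10 and 12 of them, 0.426% and 0.661% of its reads in total replicates 1 and 2. U5 had 8 and 7, which is 0.0167% and 0.0147%. U13 had 6 and 4, with the highest share, 2.78% and 1.63%. U1 and U3 had 1 and 3 each, while U4, U6, U7, U14 and U17 had none in any library. At their depth after oxidation the limits, counting each read, were 0.219% and 0.199% for U2 and 4.11% for U13 in oxidized replicate 2. In the units above, an untested estimate, U2 held 11.2 and 11.6 and U13 at most 0.559. On that estimate the limits would be far higher, and whether the antisense share of either row changed cannot be told. The tRNA table likewise had 0 reverse reads in both oxidized libraries, from 65 and 63 in total replicates 1 and 2. The rRNA table had 332 and 2 reverse reads after oxidation and 133 and 120 in total libraries. The reverse share of miRNA reads was 1.04% and 1.65% after oxidation, against 0.0751% and 0.0767%. TE reads of the same libraries were 96.3% and 95.5% reverse after oxidation and 75.8% and 80.1% in total libraries.

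How many rows were called depended on which libraries entered the fit, and this was so for the other features as well. Without total replicate 1 or 2 the call of U5 alone was left, while 7.35% and 7.42% of all features were lower. Without oxidized replicate 1 or 2, 6 rows were lower, against 62% and 57.9% of all features. U3 was then the 1 row called higher, without oxidized replicate 1, against 24.2%. With sense reads only, U5 was the 1 row called, against 52.3% of features lower. In each of these fits U5 was lower, by a log2 fold change between -3.52 and -2.52.

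**Figure D4:**
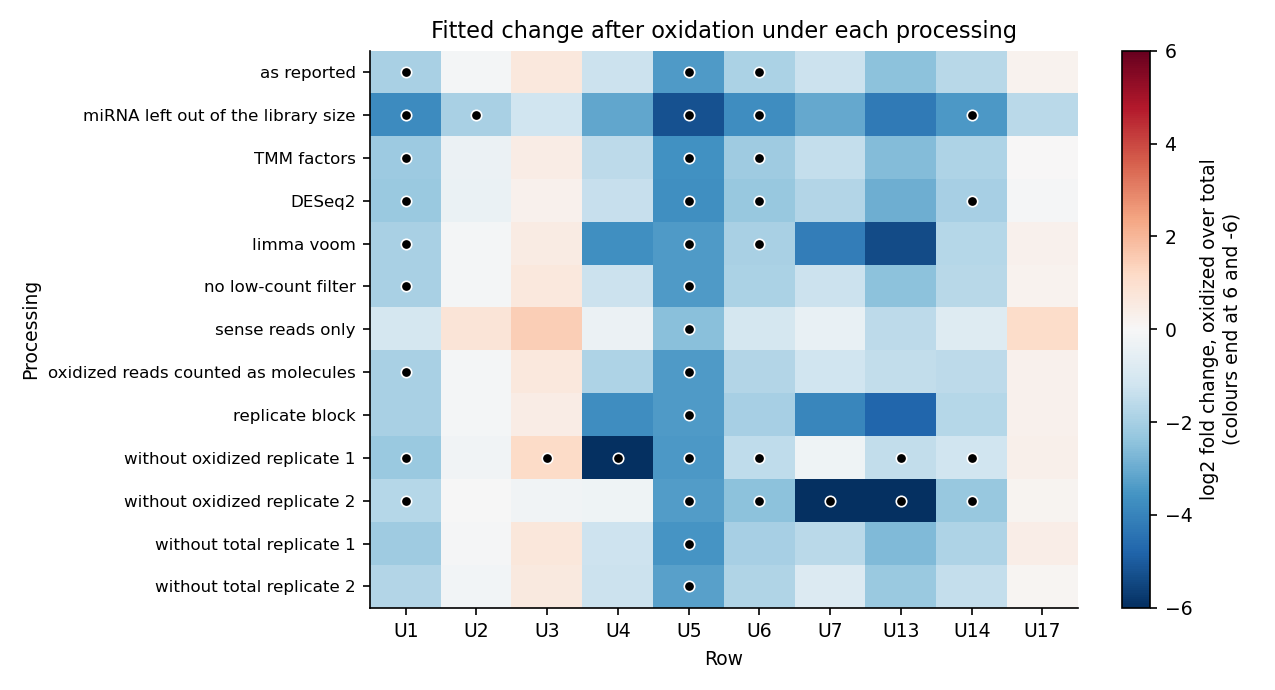
Fitted log2 fold change of each row (colour, blue for lower after oxidation) under the processing as reported and 12 alternatives, with a dot where the adjusted p was under 0.05. U5 has a dot in every line, U2 has one on the denominator without miRNA and in no other line, and U17 has none.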

How the data were processed

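Small RNA reads of 4 libraries (2 oxidized, 2 total) were used as the raw counts of reads per feature that the authors deposited in 48 files, 6 tables per library, each as unstranded and as reverse-strand counts. They were made with featureCounts on galGal6, per the submitters' processing notes. The aligner, annotation, versions and handling of multi-mapping reads are not given in the sources used here, so reads of repeat names with many copies may be split or shared between rows. No row of another table had the same 4 counts as one of the 10 rows. Of 24356 Ensembl IDs, 0 matched a RefSeq gene table of another assembly (GRCg7b), so no further genes of splicing were described.

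Library size was the sum of the 6 unstranded tables, and CPM is a count over that sum. Counts of all tables were fitted with edgeR 4.0.16 in R 4.3.3 (glmQLFit, glmQLFTest, default filter, no TMM factor), adjusted over the 1326 features kept; an SE is the log2 fold change over the root of its F statistic. The script was tested on data simulated with the same dispersion for every feature and in both groups. That test does not cover the wider spread of the oxidized libraries. Over the features tested the median ratio between replicates was 2.56 in oxidized and 1.26 in total libraries. Sums were compared by exact permutation (scipy 1.17.1). Alternatives were other library sizes, TMM, DESeq2 1.42.0, voom in limma 3.58.1, no filter, sense reads, oxidized counts divided by 122 or 130.5 reads (called molecules, an untested estimate), a replicate block and leaving out each library. Rows, groups and alternatives were chosen with earlier results of these data known, and every row of the set is named.

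Libraries with the same number were treated as a pair, because the design text has each sample divided; no label states that the number marks the portions. Their deviations from the group means had a correlation of 0.0527 over the features tested.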

Additional observations from a re-analysis of the deposited data

How the results depend on the processing

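The number of rows called lower was 3 as reported. It was 5 without miRNA in the library size, 1 with sense reads only and 1 with the replicate block, and from 1 to 6 when a library was left out; the number called higher was 0 and from 0 to 1, the 1 being U3 without oxidized replicate 1. With the replicate block U5 alone was called. A lone library is assumed to vary as the other group does: counts were 6 without either oxidized library and 1 (U5) without either total library. Sense reads alone take the mostly antisense TE reads out of the denominator. As log2 ratios of oxidized over total, the sum of the rows changed by -2.47 per assigned read, -1.60 with sense reads and -0.64 without U5. Per reads other than miRNA the values were -4.29, -3.43 and -2.46. Without U5 the ratio to rRNA reads went from -2.77 to -0.93, that to tRNA reads from -3.63 to -1.80 and that to miRNA reads from 3.02 to 4.85, and the antisense share differed by -0.23 instead of -0.05 percentage points. The pairing left these sums unchanged by construction. TMM and DESeq2 factors moved the median feature by -0.17 and -0.15. U17 kept its side of the threshold, like U5, under the 12 alternatives, although its sign was negative with DESeq2 and with miRNA left out. Depth limits U4, U6, U7, U13, U14 and U17, each with 0 to 404 reads in an oxidized library. U1 was little deeper, with 455 and 405 reads in oxidized replicates 1 and 2. In units of 122 and 130.5 reads this was 3.73 and 3.10.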
